A study of Mus musculus with 6 samples.

Results

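The interferon response and antigen presentation were followed in mouse bladder tumor organoids through 34 named genes among the 51912 gene IDs of the deposited expression table. The genes came from a list of names, and all 34 were found. Of them, 17 had a mean of at least 1 TPM over the 6 libraries and entered the tests, which covered 9287 genes in all. They comprised 4 sensors of viral nucleic acid, 4 transcription factors, 15 antiviral effectors and genes of the ISG15 system, 2 guanylate-binding proteins with 1 chemokine, and 8 genes of class I antigen presentation, 3 of them immunoproteasome subunits. Organoids are small cultures that grow from tumor cells in 3 dimensions. Bulk RNA was sequenced from 3 libraries of organoids given SRT1720, a small molecule developed to activate SIRT1, an NAD-dependent deacetylase, and from 3 libraries of organoids given vehicle, all from strain C57BL/6. Dose, duration, the origin of the tumor and the genotype of its cells were not stated in the labels. The labels also leave out whether libraries of a group are separate cultures or mice. Each p-value therefore measures only the spread between these libraries, which may be technical.

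Interferons are secreted signals of infection and cell stress. Type I interferons bind the receptor of IFNAR1 and IFNAR2, whose kinases JAK1 and TYK2 activate transcription factors of the STAT family. These factors, STAT2 among them, join IRF9 and bind the interferon-stimulated response element in the promoters of many antiviral genes. Epithelial cells can make and answer interferon themselves, through RNA sensors such as RIG-I and MDA5. In class I antigen presentation, the immunoproteasome cuts proteins into peptides, the TAP1 and TAP2 transporter brings these into the endoplasmic reticulum, and heavy chains paired with beta-2 microglobulin carry them to the cell surface. The same response raises this pathway in many cell types.

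Levels are in TPM as the deposited table calls them, scaled by gene length and library, and are always given in the order of libraries 1, 2 and 3 of a group. The depth recovered from those values was 18244855 to 22833428 reads per library. Across the 9270 tested genes outside the 34, deviations from the group mean correlated between SRT1720 1 and Vehicle 2 (Pearson's r = 0.721), between SRT1720 2 and Vehicle 1 (r = 0.671) and between SRT1720 3 and Vehicle 3 (r = 0.788). The other 6 cross-group pairs had r between −0.59 and −0.191. Deviations from a group mean cancel out within the group, so a positive r with 1 library pushes those with the others towards negative values. Genes are not independent replicates, so these r values only describe the libraries. Of 17 epithelial and urothelial markers, 13 reached a mean of 1 TPM, with Epcam, an epithelial adhesion molecule, at 106, 76.8 and 191 TPM in the SRT1720 libraries and 69.4, 80.7 and 177 TPM in the Vehicle libraries. Krt5, a basal keratin, was at 16.4, 616 and 1120.1 TPM in the SRT1720 libraries and 425, 9.61 and 741 TPM in the Vehicle libraries, so that SRT1720 1 and Vehicle 2 were low. For Epcam, Cdh1 and Krt8 the lowest 2 libraries were SRT1720 2 and Vehicle 1. The other markers that reached a mean of 1 TPM had other lowest pairs. Cdh1 was at 46.9, 19 and 47.3 TPM in the SRT1720 libraries and 14.5, 36.7 and 56.5 TPM in the Vehicle libraries.

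Interferon-induced genes differed widely between libraries of the same group. SRT1720 2 and Vehicle 1 were the lowest 2 of the 6 libraries in 27 of the 34 genes, 1 library from each group. Among the 17 tested genes this held for 15, where it held for 6.61% of all 9287 genes tested. The highest library exceeded the lowest by more than 10-fold in 17 of the 34 genes. That spread was seen in 6 of the 17 tested members, and in 3.59% of all genes tested, counting those with a library at 0. Vehicle 3 was the highest library in 22 of the 34 genes and SRT1720 1 in 10. Among the tested members Vehicle 3 led in 12 of 17, against 17.1% of all genes tested. The median deviation of the 34 genes from their own means, on the log2(TPM + 1) scale, was 0.23, −0.38 and 0.14 in SRT1720 1, 2 and 3, and −0.40, −0.068 and 0.56 in Vehicle 1, 2 and 3. Both low libraries lay well below the other 4, and each group held 1 of them. In bulk RNA, fewer cells in an interferon-induced state and less RNA per cell cannot be told apart.

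**Figure D1:**
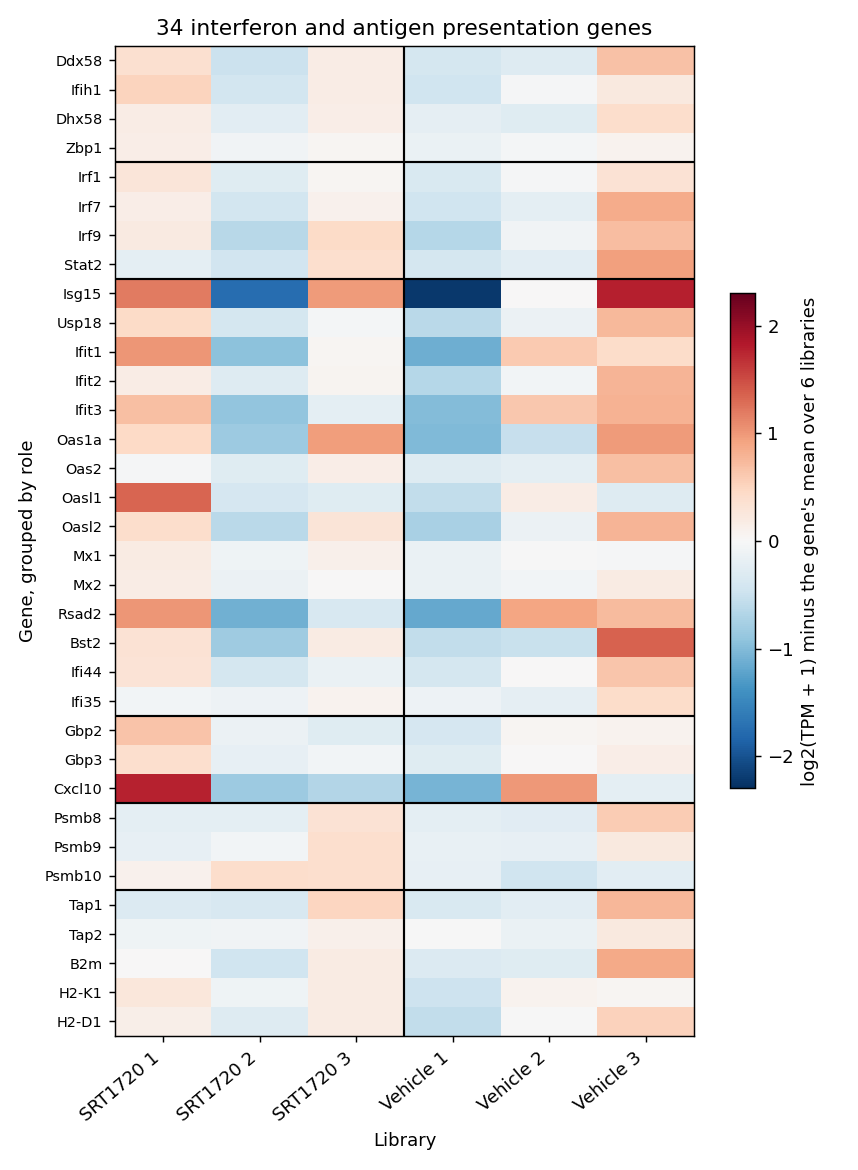
Heat map of the 34 genes (rows, grouped by role with black lines) in the 6 libraries (columns). Colour gives log2(TPM + 1) minus the mean of the gene over the 6 libraries. The columns of SRT1720 2 and Vehicle 1 are blue for nearly all interferon-induced genes, while Vehicle 3 is mostly red.

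Among the antiviral effectors, Isg15, which encodes a ubiquitin-like protein that is attached to other proteins during infection, was at 18.4, 1.53 and 15.6 TPM in the SRT1720 libraries and 0.808, 7.55 and 28.3 TPM in the Vehicle libraries. The 36 reads behind the Vehicle 1 value allow 0.566 to 1.12 TPM and the 1103 reads in Vehicle 3 allow 26.7 to 30.1 TPM (exact Poisson 95% intervals). Such intervals cover counting error only. The library-to-library difference within the vehicle group was thus far outside counting error. Each group held high and low libraries and the groups overlapped. Usp18, which removes ISG15 and restrains the interferon receptor, was at 1.37, 0.311 and 0.692 TPM in the SRT1720 libraries and 0.139, 0.587 and 1.92 TPM in the Vehicle libraries, in the same order of libraries within the vehicle group.

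Genes of the Ifit family, whose products bind foreign RNA, covered an even wider range. Ifit1 was at 3.71, 0.22 and 1.42 TPM in the SRT1720 libraries and 0.0703, 2.54 and 2.15 TPM in the Vehicle libraries. Its close relative Ifit3 was at 2.25, 0.0712 and 0.728 TPM in the SRT1720 libraries and 0.00972, 2.07 and 2.51 TPM in the Vehicle libraries, and rested on 1 read in Vehicle 1 and 226 reads in Vehicle 3. Ifit3 has a near-identical neighbour, Ifit3b, at 1.09, 0.0444 and 0.345 TPM against 0, 0.583 and 0.942 TPM in the same order of libraries, so reads could be split between them. Ifit2 varied less, at 1.62, 0.89 and 1.42 TPM in the SRT1720 libraries and 0.474, 1.23 and 2.99 TPM in the Vehicle libraries. Rsad2, which encodes viperin, an enzyme that makes a chain-terminating nucleotide, was at 3.7, 0.0775 and 0.784 TPM in the SRT1720 libraries and 0.0206, 3.36 and 2.84 TPM in the Vehicle libraries. These genes were at their lowest in Vehicle 1 and next lowest in SRT1720 2, and their highest libraries were SRT1720 1 or Vehicle 3.

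The promoters of 4 of these effectors are shown because a single motif recurs in them, next to 1 effector promoter that lacks it. Each stretch is the 160 bases before the RefSeq start on GRCm38.p6, read 5′ to 3′ on the gene's strand. Capitals mark matches to the core of the interferon-stimulated response element (ISRE), which is GAAA, any 2 bases and GAAA again, on either strand, with overlapping matches run together.
Isg15, minus strand, chr4:156200819-156200978: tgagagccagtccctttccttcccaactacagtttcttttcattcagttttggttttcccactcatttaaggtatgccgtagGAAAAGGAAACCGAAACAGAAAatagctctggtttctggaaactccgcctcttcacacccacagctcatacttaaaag
Ifit1, plus strand, chr19:34640729-34640888: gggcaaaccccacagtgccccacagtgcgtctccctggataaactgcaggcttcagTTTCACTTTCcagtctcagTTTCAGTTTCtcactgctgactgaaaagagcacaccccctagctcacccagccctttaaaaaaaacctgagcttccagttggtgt
Ifit3, plus strand, chr19:34583369-34583528: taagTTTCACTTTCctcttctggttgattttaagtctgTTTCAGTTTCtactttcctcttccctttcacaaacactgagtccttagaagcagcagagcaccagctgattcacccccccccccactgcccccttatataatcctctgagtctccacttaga
Rsad2, minus strand, chr12:26456453-26456612: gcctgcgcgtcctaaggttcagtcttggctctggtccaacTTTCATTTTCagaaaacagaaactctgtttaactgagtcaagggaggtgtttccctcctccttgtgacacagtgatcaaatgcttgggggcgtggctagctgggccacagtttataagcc
Oasl2, plus strand, chr5:114896774-114896933: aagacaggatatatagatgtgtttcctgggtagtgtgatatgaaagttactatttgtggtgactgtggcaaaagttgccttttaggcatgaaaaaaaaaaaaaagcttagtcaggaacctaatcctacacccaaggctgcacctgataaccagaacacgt
The Isg15 stretch held 3 overlapping matches, Ifit1 and Ifit3 held 2 each and Rsad2 held 1. Of the 27 member genes with a promoter in the RefSeq table (250 bases before to 50 after the start), 13 had a match, against 3.44% of 32851 promoters of all genes. Members were counted by gene, with a match in any listed promoter, and all genes by promoter, so the units differ. A match describes letters only and does not show binding, and the genes were listed as interferon-stimulated to begin with. Oasl2, with no match in this window, was nonetheless at 1.26, 0.108 and 1.1 TPM in the SRT1720 libraries and 0.015, 0.553 and 1.93 TPM in the Vehicle libraries, with the same 2 libraries lowest.

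The oligoadenylate synthetase family senses double-stranded RNA, and its members separated the high libraries from each other. Oas1a was at 1.92, 0.198 and 3.17 TPM in the SRT1720 libraries and 0.063, 0.473 and 3.19 TPM in the Vehicle libraries, and its high libraries were SRT1720 3 and Vehicle 3. Near-identical copies such as Oas1g lie beside Oas1a, so its level is uncertain. Oas2 was at 0.215, 0.0297 and 0.376 TPM in the SRT1720 libraries and 0.0142, 0.0609 and 1.01 TPM in the Vehicle libraries, highest in Vehicle 3. Oasl1, an oligoadenylate synthetase-like protein that restrains translation of Irf7 in mice, was at 2.77, 0.133 and 0.219 TPM in the SRT1720 libraries and 0.0081, 0.675 and 0.21 TPM in the Vehicle libraries. It was highest in SRT1720 1, with 943 reads and a counting interval of 2.6 to 2.96 TPM. In Vehicle 1 it had 3 reads and an interval of 0.00167 to 0.0237 TPM.

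Bst2, which encodes tetherin, a membrane protein that holds budding virus on the cell, was the most abundant effector as deposited, at 23.5, 9.96 and 21.2 TPM in the SRT1720 libraries and 12.1, 12.6 and 48.9 TPM in the Vehicle libraries. It varied 4.91-fold and stood highest in Vehicle 3. Ifi35, an interferon-induced leucine zipper protein, was the steadiest effector, at 1.47, 1.39 and 1.72 TPM in the SRT1720 libraries and 1.38, 1.24 and 2.46 TPM in the Vehicle libraries. Mx1 and Mx2 encode dynamin-like GTPases, and C57BL/6 mice carry a defective Mx1 allele. They stayed at or below 0.274 TPM in every library. Ifi44 was at 0.691, 0.0225 and 0.219 TPM in the SRT1720 libraries and 0.0216, 0.369 and 1.11 TPM in the Vehicle libraries, with both low libraries again lowest.

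**Figure D2:**
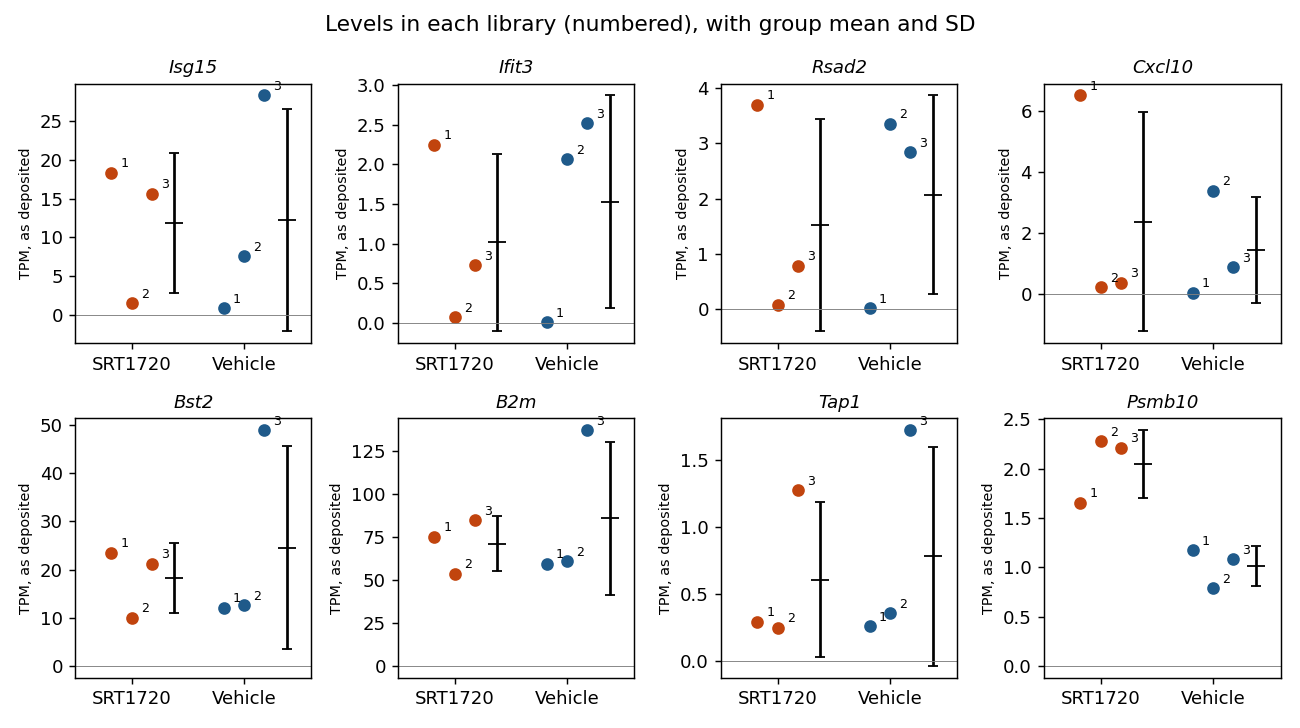
Deposited TPM (vertical axis, linear) of 8 genes in the 3 SRT1720 libraries (orange) and the 3 Vehicle libraries (blue), each point numbered by replicate, with the group mean and SD in black. Libraries of the groups interleave in every panel but that of Psmb10, where the SRT1720 points lie above the Vehicle points.

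SRT1720 2 and Vehicle 1 were also the lowest libraries for 3 of the 4 sensors and for all 4 transcription factors. Ddx58, which encodes the RNA sensor RIG-I, was at 2.27, 0.803 and 1.85 TPM in the SRT1720 libraries and 0.93, 1.08 and 3.04 TPM in the Vehicle libraries, and Ifih1, which encodes the sensor MDA5, was at 1.35, 0.234 and 0.864 TPM in the SRT1720 libraries and 0.199, 0.622 and 0.943 TPM in the Vehicle libraries. Dhx58 (LGP2, a regulator of both) and Zbp1 (a sensor of Z-form nucleic acid that can start necroptosis) stayed at or below 0.74 TPM. Irf7, the interferon-inducible factor that amplifies type I interferon, was at 0.6, 0.0711 and 0.549 TPM in the SRT1720 libraries and 0.0544, 0.226 and 1.61 TPM in the Vehicle libraries. The DNA-binding partner Irf9 was at 1.29, 0.275 and 1.71 TPM in the SRT1720 libraries and 0.267, 0.883 and 2.26 TPM in the Vehicle libraries, and Stat2 was at 1.38, 1.06 and 2.63 TPM in the SRT1720 libraries and 1.12, 1.35 and 4.37 TPM in the Vehicle libraries. Irf1, which also drives class I genes, varied least of the 4 factors, at 4.67, 2.87 and 3.84 TPM in the SRT1720 libraries and 2.65, 3.59 and 4.91 TPM in the Vehicle libraries. In all 4 factors the highest library was Vehicle 3, and the groups overlapped.

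Cxcl10, a chemokine that attracts T cells and natural killer cells, was highest in the libraries with low Krt5, at 6.52, 0.232 and 0.382 TPM in the SRT1720 libraries and 0.0485, 3.39 and 0.881 TPM in the Vehicle libraries. It was 134-fold higher in SRT1720 1 than in Vehicle 1, and low in SRT1720 3 and Vehicle 3, where Isg15 was high. Gbp2 and Gbp3, guanylate-binding proteins that attack the membranes of intracellular pathogens, were at 1.64, 0.533 and 0.384 TPM against 0.286, 0.736 and 0.763 TPM and at 0.635, 0.0983 and 0.201 TPM against 0.0313, 0.264 and 0.394 TPM in SRT1720 1 to 3 and Vehicle 1 to 3. Gbp2, Gbp3 and Ifi44 lie on chromosome 3, where the median deviation of the other tested genes was −0.39 and −0.41 (log2) in SRT1720 3 and Vehicle 3 and 0.14 to 0.26 in the other 4 libraries. The part of chromosome 3 in these 3 genes was not tested. Cxcl10 lies on chromosome 5, where the same medians ran from −0.12 to 0.14. Irf9 lies on chromosome 14, where they were 0.073, −0.13 and 0.18 in the SRT1720 libraries and −0.23, −0.079 and 0.16 in the Vehicle libraries, with the same lowest pair and the same highest pair as Irf9. The part of chromosome 14 in Irf9 was not tested. On the remaining chromosomes that hold members the medians ran from −0.10 to 0.14.

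Among the listed genes of class I antigen presentation SRT1720 3 and Vehicle 3 were mostly the highest libraries. Psmb8, the inducible chymotrypsin-like subunit of the immunoproteasome, was at 0.0981, 0.0986 and 0.61 TPM in the SRT1720 libraries and 0.0943, 0.0696 and 0.927 TPM in the Vehicle libraries. Psmb9, another inducible catalytic subunit, was at 0.0795, 0.172 and 0.596 TPM in the SRT1720 libraries and 0.0834, 0.0749 and 0.429 TPM in the Vehicle libraries, and the peptide transporter gene Tap1 at 0.293, 0.249 and 1.27 TPM in the SRT1720 libraries and 0.26, 0.358 and 1.72 TPM in the Vehicle libraries. Tap2, which encodes its partner, was at 0.138, 0.153 and 0.331 TPM in the SRT1720 libraries and 0.214, 0.0943 and 0.421 TPM in the Vehicle libraries. In these 4 genes SRT1720 3 and Vehicle 3 were the highest 2 libraries, and SRT1720 1 and Vehicle 2, where Ifit1 and Rsad2 were high, stayed with the low ones. SRT1720 3 and Vehicle 3 were the top 2 libraries in 2 of the 3 immunoproteasome genes, in 4 of the 5 genes of peptide transport and the class I complex, and in 5 of the other 26 genes. Among the tested members they were the top 2 in 6 of 17, against 11.0% of all genes tested. Outside the members, they were the top 2 in 6 of 23 other class I pathway genes above 0 in at least 1 library. Of the 16 tested, 4 had this pair on top. For further interferon-stimulated genes the counts were 26 of 59 and 11 of the 21 tested. This order therefore did not set antigen presentation apart from interferon-stimulated genes beyond the members.

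B2m, the light chain of every class I molecule, was at 75.1, 53.7 and 84.5 TPM in the SRT1720 libraries and 59.3, 60.9 and 137 TPM in the Vehicle libraries. The heavy chain genes H2-D1 and H2-K1 were at 45.7, 33.5 and 47.5 TPM against 27.7, 40.9 and 60.4 TPM and at 21.7, 16.7 and 20.6 TPM against 12.6, 18.9 and 18.4 TPM in the same order of libraries. These 3 genes stayed well expressed in all 6 libraries, varying 1.72-fold to 2.55-fold, and their lowest libraries were also SRT1720 2 and Vehicle 1. Class I heavy chains are a family of near-identical genes, so reads could be split between H2-K1, H2-D1 and the H2-Q and H2-T genes.

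Promoters of this pathway are shown to compare genes that followed different libraries. Capitals mark the ISRE core as above or the core of the gamma interferon activation site (GAS), TTCNNNGAA, and the strands and build are given in the same way. Tap1 and Psmb9 start head to head, so the 225 bases between their starts are shown once, on the plus strand.
B2m, plus strand, chr2:122147527-122147686: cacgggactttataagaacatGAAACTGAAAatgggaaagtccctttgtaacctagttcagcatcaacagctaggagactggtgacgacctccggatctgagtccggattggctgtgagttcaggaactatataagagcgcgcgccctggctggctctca
H2-K1, minus strand, chr17:34000348-34000507: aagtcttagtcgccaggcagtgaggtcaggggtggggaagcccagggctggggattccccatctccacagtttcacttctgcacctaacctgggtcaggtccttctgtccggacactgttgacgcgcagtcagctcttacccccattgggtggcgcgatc
Psmb8, plus strand, chr17:34198035-34198194: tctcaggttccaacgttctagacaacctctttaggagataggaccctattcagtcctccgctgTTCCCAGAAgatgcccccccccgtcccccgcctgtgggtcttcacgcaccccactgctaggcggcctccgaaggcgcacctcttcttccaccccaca
Psmb9 to Tap1, plus strand, chr17:34187331-34187555: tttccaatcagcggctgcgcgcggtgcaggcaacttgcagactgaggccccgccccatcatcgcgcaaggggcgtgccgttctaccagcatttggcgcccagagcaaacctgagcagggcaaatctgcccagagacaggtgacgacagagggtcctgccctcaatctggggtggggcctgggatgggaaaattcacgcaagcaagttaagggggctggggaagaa
Psmb10, minus strand, chr8:105938393-105938552: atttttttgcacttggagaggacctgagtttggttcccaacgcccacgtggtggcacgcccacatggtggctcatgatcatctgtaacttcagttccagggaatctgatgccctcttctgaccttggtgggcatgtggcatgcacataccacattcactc
The B2m stretch held 1 ISRE core and the Psmb8 stretch 1 GAS core, and no match to either was present in the other 3. The GAS core occurred in 6 of the 27 member genes with a promoter and in 8.3% of all promoters, again by gene against by promoter. A missing match says only that these letters are not in the window.

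The question put to all 34 genes was whether SRT1720 shifted them, tested with limma on log2(TPM + 1) with Benjamini-Hochberg adjustment over all 9287 genes that passed the filter. Of the 17 tested members, 0 were called at an adjusted p of 0.05, as were 0.0% of all genes. At an unadjusted p under 0.05 there was 1 member, Psmb10, higher with SRT1720, against 12.4% of all genes (7.86% higher and 4.55% lower). On the recovered reads, limma's voom likewise called 0 members and had 1 below that p, with no share of all genes given for it. The median log2 fold change of the tested members was 0.015, beside 0.035 over all genes. Of the 17, 10 had log2 fold changes above 0, as did 54.8% of all genes. That split moved with single libraries, to 2 above 0 when Vehicle 1 was left out, 16 when Vehicle 3 was, 3 when SRT1720 1 was and 5 when SRT1720 3 was, and to 6 with median-of-ratios scaling. The groups did not overlap in 1 tested member, again Psmb10, against 19.9% of all genes (12.1% with SRT1720 higher and 7.75% with SRT1720 lower).

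Psmb10, the inducible trypsin-like subunit of the immunoproteasome, was at 1.65, 2.27 and 2.21 TPM in the SRT1720 libraries and 1.17, 0.789 and 1.08 TPM in the Vehicle libraries. All 3 SRT1720 libraries lay above all 3 Vehicle libraries, with means of 2.05 ± 0.342 TPM over the SRT1720 libraries and 1.02 ± 0.202 TPM over the Vehicle libraries (SD, n = 3). The log2 fold change was 0.59 (SE 0.15, 95% interval 0.23 to 0.96), limma's adjusted p was 0.29, and an exact two-sided permutation test gave p = 0.1, the smallest that 3 libraries against 3 allow. Because the groups did not overlap, any pairing of libraries has SRT1720 higher, so the sets of resembling libraries add nothing here. Their values were 1.65 against 0.789 TPM for SRT1720 1 and Vehicle 2 and 2.27 against 1.17 TPM for SRT1720 2 and Vehicle 1. For SRT1720 3 and Vehicle 3 they were 2.21 against 1.08 TPM. Over the 17 other settings tried, Psmb10 was tested in 16 and its adjusted p by limma ran from 0.0829 to 0.834. Its fold change stayed above 0, which without overlap no choice of libraries, pseudocount or library weights could have changed. With 1 of 17 members, the share without overlap was below that of all genes tested.

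For the other 16 tested members the 95% interval of the difference included 0. Isg15 averaged 11.8 ± 9.03 TPM over the SRT1720 libraries and 12.2 ± 14.3 TPM over the Vehicle libraries, with a log2 fold change of 0.28 (SE 1.16, 95% interval −2.49 to 3.05) and an adjusted p of 0.951 by limma. Rsad2 averaged 1.52 ± 1.92 TPM over the SRT1720 libraries and 2.07 ± 1.8 TPM over the Vehicle libraries, with a log2 fold change of −0.31 (SE 0.71, 95% interval −2.01 to 1.40). For Cxcl10 the means were 2.38 ± 3.59 TPM over the SRT1720 libraries and 1.44 ± 1.74 TPM over the Vehicle libraries and the log2 fold change was 0.19 (SE 0.81, 95% interval −1.73 to 2.11). Narrower intervals were found for Irf1, at 0.035 (SE 0.23, 95% interval −0.52 to 0.59), for Ifi35, at −0.067 (SE 0.19, 95% interval −0.53 to 0.40), and for H2-K1, at 0.24 (SE 0.21, 95% interval −0.27 to 0.75). A change in Isg15 of several-fold either way lies inside its interval, so the missed threshold does not show that the groups were alike. The adjusted p of these 16 genes ran from 0.699 to 0.996, and their exact permutation p from 0.4 to 1.

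**Figure D3:**
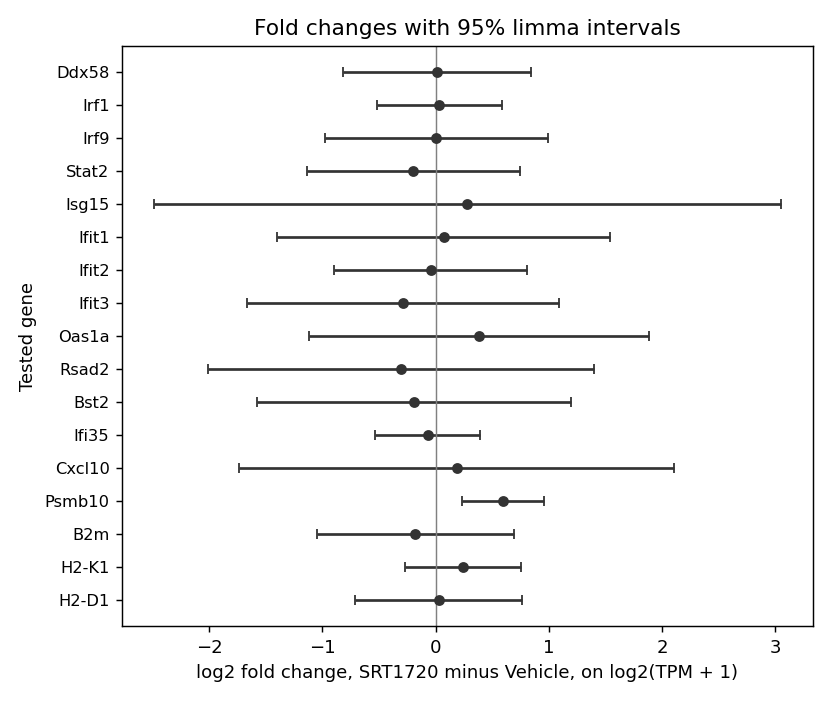
Log2 fold change (SRT1720 minus Vehicle, on log2(TPM + 1)) of the 17 tested genes with 95% limma intervals, over 3 libraries a group. The interval lies above 0 for Psmb10 alone, at 0.23 to 0.96, before adjustment over all genes.

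Set side by side with the library of the other group that it resembled, each SRT1720 library stood differently. SRT1720 1 was above Vehicle 2 in 33 of the 34 genes, including all 26 sensors, factors, effectors, guanylate-binding proteins and the chemokine. SRT1720 2 was above Vehicle 1 in 27 of 34. SRT1720 3 was above Vehicle 3 in 5 of 34, so Vehicle 3 was the higher in the rest. Over all 9287 genes tested the SRT1720 library was the higher in 59.4%, 51.2% and 51.3%. Isg15, for example, was at 18.4 against 7.55 TPM, 1.53 against 0.808 TPM and 15.6 against 28.3 TPM. The SRT1720 library was thus higher in the former 2 of these sets and lower in the last. The resemblance was read from the data and is no label, so it was not used as a block or tested.

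**Figure D4:**
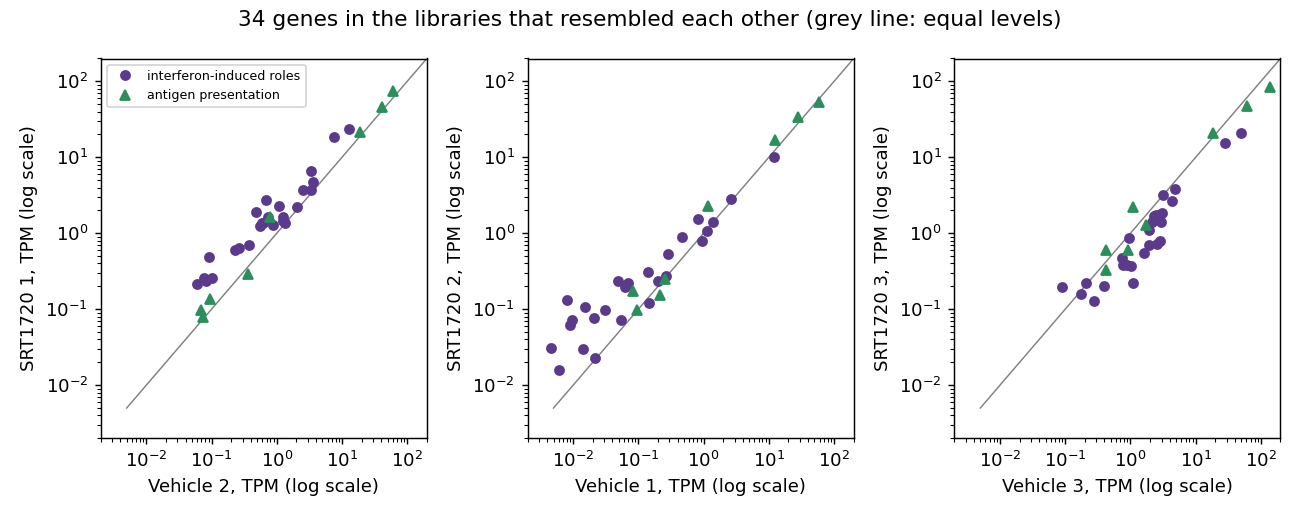
Deposited TPM of the 34 genes (both axes logarithmic) in SRT1720 1 against Vehicle 2, SRT1720 2 against Vehicle 1 and SRT1720 3 against Vehicle 3; circles are interferon-induced roles, triangles are antigen presentation genes, and the grey line marks equal levels. Points lie mostly above the line in the left and middle panels and below it in the right panel.

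Markers of other cell types also differed between the libraries. Of 24 leukocyte markers, 4 reached a mean of 1 TPM, and their summed level was 2.45 to 28.1 TPM in the SRT1720 libraries and 4.54 to 31.6 TPM in the Vehicle libraries. Ptprc, the pan-leukocyte gene for CD45, was at or below 0.0129 TPM everywhere, and 4 of the markers were at 0 in all 6 libraries. Lyz2, a lysozyme gene of macrophages and neutrophils, was at 10.5 and 14.3 TPM in SRT1720 2 and Vehicle 1. It was listed at 0 in the other 4 libraries. SRT1720 2 and Vehicle 1 were the lowest 2 libraries in 27 of the 34 genes. S100a9, a neutrophil gene, was likewise highest in those libraries, at 0, 3.8 and 0.125 TPM in the SRT1720 libraries and 5.13, 0 and 0.0267 TPM in the Vehicle libraries. Cd14 and Cd68, the other leukocyte markers that reached 1 TPM, did not follow this order. Cd14, a lipopolysaccharide co-receptor, was at 26.5, 8.59 and 1.04 TPM in the SRT1720 libraries and 8.97, 14.5 and 1.24 TPM in the Vehicle libraries, highest in SRT1720 1 and Vehicle 2. Cd68, a lysosomal gene of macrophages, was at 1.31, 0.73 and 1.03 TPM in the SRT1720 libraries and 1.45, 1.92 and 3.09 TPM in the Vehicle libraries, highest in Vehicle 3 and lowest in SRT1720 2. The summed level of 12 fibroblast markers, 1 of which reached a mean of 1 TPM, was 17.2 and 21.2 TPM in SRT1720 2 and Vehicle 1 and 0.141 to 5.56 TPM in the others. Most of it was Vim, a mesenchymal intermediate filament gene, at 4.99, 14.3 and 0.0707 TPM in the SRT1720 libraries and 17, 4.95 and 0.647 TPM in the Vehicle libraries. None of 10 endothelial markers reached a mean of 1 TPM, and their sum was at most 0.923 TPM. The part of other cells in the interferon differences was not tested.

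Interferon itself was near the limit of detection. Ifnb1, the gene for interferon beta, had 9, 7 and 3 reads in SRT1720 1, Vehicle 2 and Vehicle 3 and 0 in SRT1720 2, SRT1720 3 and Vehicle 1. A count of 0 allows up to 3 reads, which is 0.071 TPM in SRT1720 2, 0.0726 TPM in SRT1720 3 and 0.0679 TPM in Vehicle 1. The lambda interferon gene Ifnl2 had 6 reads in Vehicle 2, 1 in Vehicle 3 and 0 elsewhere. Ifnar1 and Ifnar2, the type I receptor chains, were at 2.95, 1.95 and 2.02 TPM against 2.54, 3.28 and 2.7 TPM and at 1.31, 0.798 and 0.492 TPM against 1.79, 1.16 and 0.717 TPM in SRT1720 and Vehicle libraries 1 to 3. Ifngr1, a chain of the interferon gamma receptor, was at 3.57, 3.35 and 3.25 TPM in the SRT1720 libraries and 2.55, 1.96 and 2.83 TPM in the Vehicle libraries, with no overlap and an adjusted p of 0.398 by limma. Its partner Ifngr2 was at 4.7, 3.42 and 1.51 TPM against 4.04, 3.87 and 1.69 TPM. The lambda receptor gene Ifnlr1 was at 2.42, 0.56 and 1.06 TPM in the SRT1720 libraries and 0.446, 2.17 and 0.84 TPM in the Vehicle libraries, high in both libraries with low Krt5.

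Of the other pathway genes, 5 of 14 interferon ligands and receptors, 15 of 22 sensing and signalling genes and 21 of 59 further interferon-stimulated genes passed the filter, with 0, 0 and 0 called by limma's adjusted test and 1, 3 and 0 at an unadjusted p under 0.05. Voom called none of them either. Median log2 fold changes were −0.02, −0.051 and 0.055. Together with the other class I pathway genes, 5 of 57 tested genes had an unadjusted p under 0.05 by limma, against 12.4% of all genes. The groups did not overlap in 4 of the 57 with SRT1720 higher and in 1 with SRT1720 lower. Those shares were below the 12.1% and 7.75% of all genes. The kinases Jak1 and Tyk2 were at 5.06, 5.93 and 7.69 TPM against 6.62, 5.67 and 6.99 TPM and at 1.36, 1.32 and 1.36 TPM against 1.25, 0.837 and 1.61 TPM, and Irf3, the factor downstream of the sensors, at 2.09, 2.03 and 2.35 TPM against 1.85, 1.41 and 2.4 TPM. Myd88, the adaptor of most Toll-like receptors, was at 2.52, 2.08 and 1.64 TPM in the SRT1720 libraries and 1.58, 1.08 and 0.992 TPM in the Vehicle libraries, without overlap (adjusted p = 0.361 by limma). Socs1, a feedback inhibitor of interferon signalling, was lower in every SRT1720 library than in any Vehicle library, at 1.11, 1.47 and 1.7 TPM in the SRT1720 libraries and 3.12, 2.23 and 1.94 TPM in the Vehicle libraries (adjusted p = 0.361). Socs3, a feedback inhibitor of cytokine signalling through STAT3, was at 1.76, 5.39 and 3.75 TPM in the SRT1720 libraries and 13.2, 4.84 and 9.84 TPM in the Vehicle libraries and overlapped (adjusted p = 0.361).

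Some of the further interferon-stimulated genes carried the same library order. SRT1720 2 and Vehicle 1 were the lowest 2 libraries in 22 of 59. This held for only 5 of the 21 that passed the filter, against 6.61% of all genes tested. More common was SRT1720 3 with Vehicle 3 as the highest 2 libraries, in 26 of 59 and in 11 of the 21, against 11.0% of all genes tested. Rtp4, an interferon-induced transporter chaperone, was at 1.2, 0.136 and 1.83 TPM in the SRT1720 libraries and 0.0668, 0.545 and 2.97 TPM in the Vehicle libraries. Ccl5, a chemokine for T cells, was at 7.71, 0.222 and 1.3 TPM in the SRT1720 libraries and 0, 4.1 and 2.36 TPM in the Vehicle libraries, with 0 reads in Vehicle 1. Like Cxcl10, Ccl5 was highest in SRT1720 1 and Vehicle 2. Eif2ak2, which encodes the double-stranded RNA kinase PKR, was at 3.79, 3.07 and 4.39 TPM in the SRT1720 libraries and 2.02, 1.74 and 5.35 TPM in the Vehicle libraries, highest in Vehicle 3 and SRT1720 3. Below the filter and outside any test were 71 genes of the wider lists. Those whose groups did not overlap included Tlr3, Nmi, Znfx1 and Tnfsf10, each higher with SRT1720, and Mr1, which was lower. The share without overlap among all genes below the filter is not given here, so these genes are not read as a pattern. Ifne, also without overlap in TPM, had 0, 1 and 0 reads in the SRT1720 libraries and 7, 1 and 1 in the Vehicle libraries, so that only the scaling of a single read kept its groups apart. Tlr3, an endosomal sensor of double-stranded RNA, was at 0.847, 0.486 and 0.635 TPM against 0.153, 0.407 and 0.479 TPM in SRT1720 against Vehicle libraries.

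Among 25 other class I pathway genes, 24 were found and 16 passed the filter, with 0 called by limma and by voom, 1 at an unadjusted p under 0.05 and a median log2 fold change of 0.10. Tapbp (tapasin, which bridges TAP and class I molecules) was at 12.7, 10.8 and 14.2 TPM in the SRT1720 libraries and 11.1, 9.37 and 17.4 TPM in the Vehicle libraries. Erap1, which trims peptides, was steady at 1.72, 2.25 and 1.98 TPM against 1.77, 1.77 and 1.53 TPM. The chaperones Calr and Pdia3 were highest in Vehicle 2, at 109.6 and 84.9 TPM, and between 32.2 and 53.2 TPM and 51.5 and 57.3 TPM elsewhere. Psme3, a proteasome activator subunit of the nucleus, was at 20.9, 21 and 17.8 TPM in the SRT1720 libraries and 14.9, 15 and 11.4 TPM in the Vehicle libraries, without overlap (limma's adjusted p = 0.355). Psmb6, the constitutive counterpart of Psmb9, was at 22.4, 24.2 and 18.7 TPM in the SRT1720 libraries and 18.4, 17.2 and 15.3 TPM in the Vehicle libraries, also without overlap (adjusted p = 0.489). Psmb7, the constitutive counterpart of Psmb10, was at 13.4, 14.2 and 10.3 TPM in the SRT1720 libraries and 13.9, 6.25 and 9.08 TPM in the Vehicle libraries and overlapped, and so did Psmb5, the counterpart of Psmb8, at 18.4, 12.9 and 15 TPM in the SRT1720 libraries and 11.5, 20.3 and 11.5 TPM in the Vehicle libraries. Nlrc5, the class I transactivator, stayed at or below 0.129 TPM.

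Levels of different genes depend on the length behind each value. The length recovered from the values equalled the sum of all distinct exon entries of the gene in GENCODE M21, overlapping exons counted each time, for 28 of the 34 genes and for 82.6% of the 13795 genes that averaged 20 reads or more. Merged exons matched for 16.3%. For 29 of the 34 genes the length exceeded the merged exons, by up to 3.3-fold for Irf7, so genes with many annotated transcripts are understated as deposited. Per merged exon length, H2-K1 averaged 50.8 in place of 18.2 TPM, close to H2-D1 at 51.4, and B2m led in both scales at 78.4. Usp18, at a mean of 0.836 TPM, lay just under the filter and Irf9, at 1.11 TPM, just above it. The 17 genes below the filter had deposited means of 0.114 to 0.836 TPM. Per merged exon length 23 of the 34 would reach 1, among them Tap1, Irf7 and Oasl1, and 0 of those 23 were called by limma, with 1 at an unadjusted p under 0.05. Shares of all genes on that scale are not given here. Differences of 1 gene between libraries are not touched by its length beyond the pseudocount.

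**Figure D5:**
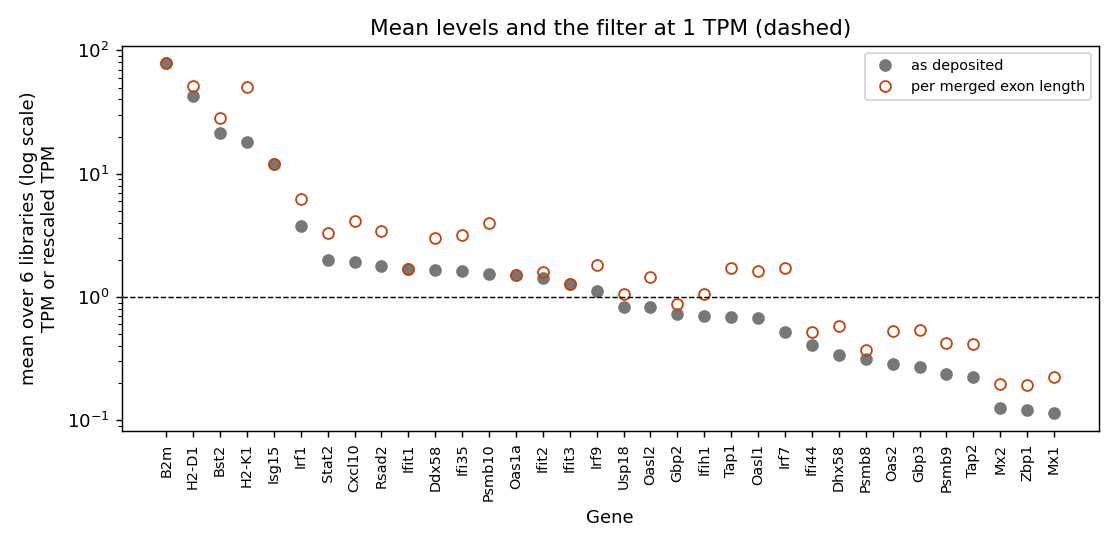
Mean level of each of the 34 genes over the 6 libraries (logarithmic axis), as deposited (grey) and rescaled to merged exon length (open orange circles), with the filter at 1 TPM dashed. Rescaling lifts Irf7, Tap1 and Oasl1 above the filter and leaves B2m and Isg15 where they were.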

How the data were processed

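The members and gene lists were chosen with earlier results of these data known. The authors deposited TPM values of 51912 Ensembl gene IDs, with 1 column for each of 6 libraries of bulk RNA, and groups came from the sample titles. Per the submitters' processing notes, STAR 2.6.0 and the GRCm38 build were used in roles not stated, and the counting program, annotation and gene lengths are not stated there. TPM is the name on the deposited table, but its columns summed to 161231 to 171577 where TPM by definition sums to a fixed total shared by all libraries. Symbols and positions came from GENCODE M21 (51633 IDs matched). Whole reads were recovered by finding, for each gene, the smallest length that made every value a whole multiple of the step of its library within 0.01, for 27708 of 27713 IDs above 0; a smallest length can understate low counts. Exact Poisson intervals used these reads.

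Genes averaging 1 TPM or more over the 6 libraries entered limma 3.58.1 (mean trend) in R 4.3.3 on log2(TPM + 1). An adjusted p (Benjamini-Hochberg) under 0.05 was a call. Fold changes are on that scale, which understates changes of low genes. Lists were read by counts and medians only. Libraries of a group were not copies of each other: the median chi-square per gene was 17.9 to 42. The fit and the read recovery were tested on simulated data. Promoters came from RefSeq on GRCm38.p6, and 27 of the 34 genes matched. Named genes were every member, and of the wider lists those at an unadjusted p under 0.05, those without overlap, and a fixed set of receptors, signalling and chaperone genes; Ifnb1, Ifnl2, Ifnlr1, Ccl5, Rtp4, Eif2ak2, Ifit3b, Psmb5, Psmb7, the Ifitm genes and the class II genes in the text were added after their values were seen. Mb21d1 and H2-Ke2 were not matched, and some genes of the wider lists are not reported here. Python 3.11.15, pandas 2.3.3, numpy 2.4.6, scipy 1.17.1 and matplotlib 3.10.9 were used. Alternatives were leaving out libraries, a replicate block, another pseudocount, other filters, scalings and weights, and voom on reads.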

Additional observations from a re-analysis of the deposited data

How the results depend on the processing

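Over 17 other settings, 0 members and 0 genes of the wider lists were called, and the median log2 fold change of the tested members moved by less than the spread of that median between libraries of a group (0.546). The 0.0% of all genes called belongs to the fit described above. Shares of all genes called in the other settings are not given here, so 0 calls there have no background beside them. Leaving out 1 library at a time, that median ran from −0.31 to 0.31, the number of tested members above 0 from 2 to 16, those without overlap from 1 to 2 (the most without SRT1720 2 and without Vehicle 3), and the medians of interferon ligands and receptors from −0.28 to 0.18 and of other class I pathway genes from −0.022 to 0.17. The number above 0 was 2 with library weights, 6 with median-of-ratios scaling, 6 with quantile normalization, 3 of 5 at a mean of at least 5 TPM, 20 of 34 with no filter, 3 without both SRT1720 1 and Vehicle 2 and 16 without both SRT1720 3 and Vehicle 3; apart from the changed sets of genes and libraries, the cause was not tested. Members without overlap numbered 0 at a mean of at least 5 TPM, where Psmb10 was not tested, and 2 without both SRT1720 3 and Vehicle 3; quantile-normalized overlap was not computed. Groups of fewer libraries avoid overlap more easily. Counts with libraries left out therefore cannot be set beside the 19.9% of all genes tested in the full set. The median of sensing and signalling genes was 0.091 per merged exon length, an alternative added after the data were seen, and −0.35 among genes averaging 5 TPM or more, and that of other class I pathway genes was 0.17 with voom. The sign of the fold change differed in at least 1 setting for 15 of 17 tested members, all but Psmb10 and H2-K1. For Psmb10 most settings could not change the sign, because its groups did not overlap. Same-numbered libraries had r of −0.191, −0.263 and 0.788 over genes, so only number 3 joined libraries that resembled each other. The labels do not say whether equal numbers mark paired samples. With the replicate block the median of 0.015, the 10 members above 0 and the 1 without overlap could not change. Each number holds 1 library of each group, so the block leaves fold changes as they were. Under it 0 members were called, limma's adjusted p of Psmb10 was 0.392, and genes at an unadjusted p under 0.05 went from 1153 to 1133. Counts of such genes were 523 without SRT1720 2 and 682 without both SRT1720 3 and Vehicle 3, and reached 2056 with library weights. Those weights were 5.6 for SRT1720 2 and 0.489 to 1.3 for the other libraries, so that SRT1720 2 counted most in its group. Depth limits genes such as Mx1, Zbp1 and Ifnb1, with few reads in the low libraries.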

Other observations

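The Ifitm genes, interferon-stimulated genes whose membrane proteins block viral entry, did not share the library order of the other antiviral genes. Ifitm3 was at 102, 189.9 and 192 TPM in the SRT1720 libraries and 242, 95.5 and 188 TPM in the Vehicle libraries, and Ifitm2 at 9.29, 13.9 and 11.9 TPM in the SRT1720 libraries and 22, 10.4 and 14.8 TPM in the Vehicle libraries. Ifitm1 was at 1.18, 14.5 and 0.0696 TPM in the SRT1720 libraries and 33.3, 0.845 and 0.104 TPM in the Vehicle libraries, so that SRT1720 2 and Vehicle 1, the lowest libraries for Isg15, were its highest. Vehicle 1 was the highest library for all 3 of these genes, as it was for 13.8% of all genes tested. Their log2 fold changes between groups were −0.32, −0.36 and −0.078 for Ifitm1, Ifitm2 and Ifitm3, with adjusted p of 0.958, 0.666 and 0.964 by limma.

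Class II antigen presentation was close to silent. None of 10 class II genes passed the filter, and 3 were at 0 in all 6 libraries. Cd74, the invariant chain, was the highest, at 0.711, 0.124 and 0.0363 TPM in the SRT1720 libraries and 0.0847, 0.752 and 0.0873 TPM in the Vehicle libraries, with the libraries low in Krt5 on top. Cxcl9 and Cxcl11, chemokines that share a receptor with Cxcl10, stayed at or below 0.0114 TPM in all libraries, while Cxcl10 reached 6.52 TPM. Cd274, which encodes the checkpoint ligand PD-L1, was at 0.444, 0.132 and 0.16 TPM in the SRT1720 libraries and 0.576, 0.316 and 0.247 TPM in the Vehicle libraries.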
